A study of Mus musculus with 12 samples.

Results

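Ptgs1, Ptgs2, Ptges, Tbxas1, Alox5, Alox5ap, Ltc4s, Lta4h, Ptger2 and Ptger4 make and sense the prostaglandins and leukotrienes, and their transcript levels were followed in macrophages activated with LPS. They are the rows of the deposited expression table that carry those symbols, 10 genes of the 23440 in the table, and no measured value was used to choose them. All 10 were found, and 9 of them reached at least 1 TPM (transcripts per 1000000) in at least 3 libraries and entered the tests, as did 10822 genes in all. Alox5 stayed below that level in every library.

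Bone-marrow-derived macrophages (BMDM), cells grown from mouse marrow for 7 days in L929-conditioned medium, came from 2 genotypes on a C57BL/6J background. M-BKO cells carry Bmal1 f/f alleles and Lyz2-Cre, a Cre recombinase placed in the lysozyme gene that acts in myeloid cells, and WT cells carry Bmal1 f/f alone. All cells were primed with Ifn-γ. The M1 groups then received LPS for 8 h and the control groups received none, which gave M-BKO M1, WT M1, M-BKO control and WT control with 3 libraries each, 12 in all. Only M-BKO cells hold the Cre, so in these groups the loss of Bmal1 and the insertion into Lyz2 cannot be told apart. The sources call the replicates cell cultures, and whether they came from separate mice is not stated, so p-values measure the spread between these cultures.

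Both mediator families start from arachidonic acid, which phospholipases cut from membrane lipids. Cyclooxygenases turn it into an unstable prostaglandin intermediate, and terminal synthases then make prostaglandin E2 (Ptges) or thromboxane (Tbxas1). In the other branch Alox5, a lipoxygenase that works with the membrane protein Alox5ap, makes leukotriene A4, from which Lta4h forms leukotriene B4 and Ltc4s forms the cysteinyl leukotriene C4. Prostaglandin E2 acts on macrophages through receptors that raise cyclic AMP, among them those encoded by Ptger2 and Ptger4. Macrophages are a classical source of both families, and the inducible cyclooxygenase is a textbook LPS target.

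The promoter windows of 3 members are shown because the values below turn on these genes: the 2 cyclooxygenases, whose M1 levels lay on opposite sides of their control levels, and Ptges, which rose with Ptgs2. Each holds 250 bases before and 50 bases from the annotated start site on (RefSeq, GRCm38.p6, which has the coordinates of mm10). Capitals mark matches to an E-box (CACGTG, the element that Bmal1 with its partner Clock is known to bind), a cyclic AMP response half-site (TGACGT), a C/EBP motif (TTGCNNAA), a TATA box (TATAAA) or the NF-kB consensus, each searched on both strands.
Ptgs2, chr1:150099781-150100080, plus strand: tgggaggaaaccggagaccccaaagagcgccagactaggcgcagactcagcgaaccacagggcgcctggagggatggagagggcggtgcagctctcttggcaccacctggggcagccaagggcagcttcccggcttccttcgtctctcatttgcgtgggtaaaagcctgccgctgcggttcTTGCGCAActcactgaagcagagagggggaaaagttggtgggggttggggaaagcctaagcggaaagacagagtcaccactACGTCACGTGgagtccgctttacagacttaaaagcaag
Ptgs1, chr2:36230176-36230475, plus strand: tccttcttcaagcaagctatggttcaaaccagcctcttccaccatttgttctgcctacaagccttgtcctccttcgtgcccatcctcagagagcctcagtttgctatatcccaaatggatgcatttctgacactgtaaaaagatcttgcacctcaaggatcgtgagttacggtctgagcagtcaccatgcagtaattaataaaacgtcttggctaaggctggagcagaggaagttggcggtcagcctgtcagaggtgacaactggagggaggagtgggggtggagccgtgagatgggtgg
Ptges, chr2:30903248-30903547, minus strand: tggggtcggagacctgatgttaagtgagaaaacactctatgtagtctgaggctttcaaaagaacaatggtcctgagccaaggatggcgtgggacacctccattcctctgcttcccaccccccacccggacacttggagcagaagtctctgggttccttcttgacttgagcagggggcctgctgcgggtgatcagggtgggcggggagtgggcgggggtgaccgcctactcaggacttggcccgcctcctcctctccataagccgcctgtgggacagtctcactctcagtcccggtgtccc

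The Ptgs2 window held a C/EBP match that begins at -69 from the start site, a cyclic AMP half-site read on the minus strand at 13 and an E-box at 17, and the half-site and the E-box share bases. These positions count from the RefSeq start site, 150100031. The deposited span of Ptgs2 begins at 150100124, past the end of the window, so both motifs lie upstream of that span. A window was in the table for 9 members, Alox5ap being the one without, and Ptgs2 was the only one of the 9 with the E-box or the half-site. The E-box was in 7.15% and the half-site in 7.51% of all 32851 windows of that length, and the C/EBP motif, also matched in Ptger2, in 10.8%. The TATA motif was matched in Tbxas1 among the members and in 13.6% of all windows, and the NF-kB consensus, in 4.51% of all windows, in no member. Further motifs were searched on both strands and are not in capitals. The PU.1 core (GAGGAA, a myeloid factor) was matched in 7 of the 9 members, the shown 3 among them, and in 28.3% of all windows, and the GAS element (TTCNNNGAA) in no member and in 8.3% of all windows. A match describes letters in these windows and is not a measured binding site.

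Levels are given in TPM, which divides by transcript length and sums to 1000000 in each library, so the read depth behind a value is unknown. The labels were checked first on Arntl, the symbol of Bmal1, which averaged 3.18 ± 0.189 TPM in M-BKO M1 against 5.36 ± 0.502 TPM in WT M1, and 2.24 ± 0.252 TPM in M-BKO control against 7.5 ± 0.232 TPM in WT control (SD, n = 3 each). Lyz2, where the Cre sits, was at 47.0 to 78.8 TPM in M-BKO libraries against 14840 to 34645 TPM in WT libraries. The 7 macrophage markers found of 8 were above 1 TPM in each group and summed to 4373 to 6494 TPM over the libraries, and the marker lists of mast cells, eosinophils or basophils, dendritic cells, T or NK cells, B cells and fibroblasts each summed to under 9 TPM. Over all tested genes the SD of the residuals from the group means, on the log2 scale, was 0.142 in WT control replicate 3 and 0.0777 to 0.108 in the other 11 libraries; values that turn on that library are given with and without it. The median gene shifted after M1, by -0.45 in M-BKO and -0.43 in WT on the log2 scale of TPM + 1, so M1 responses are read beside that shift.

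**Figure D1:**
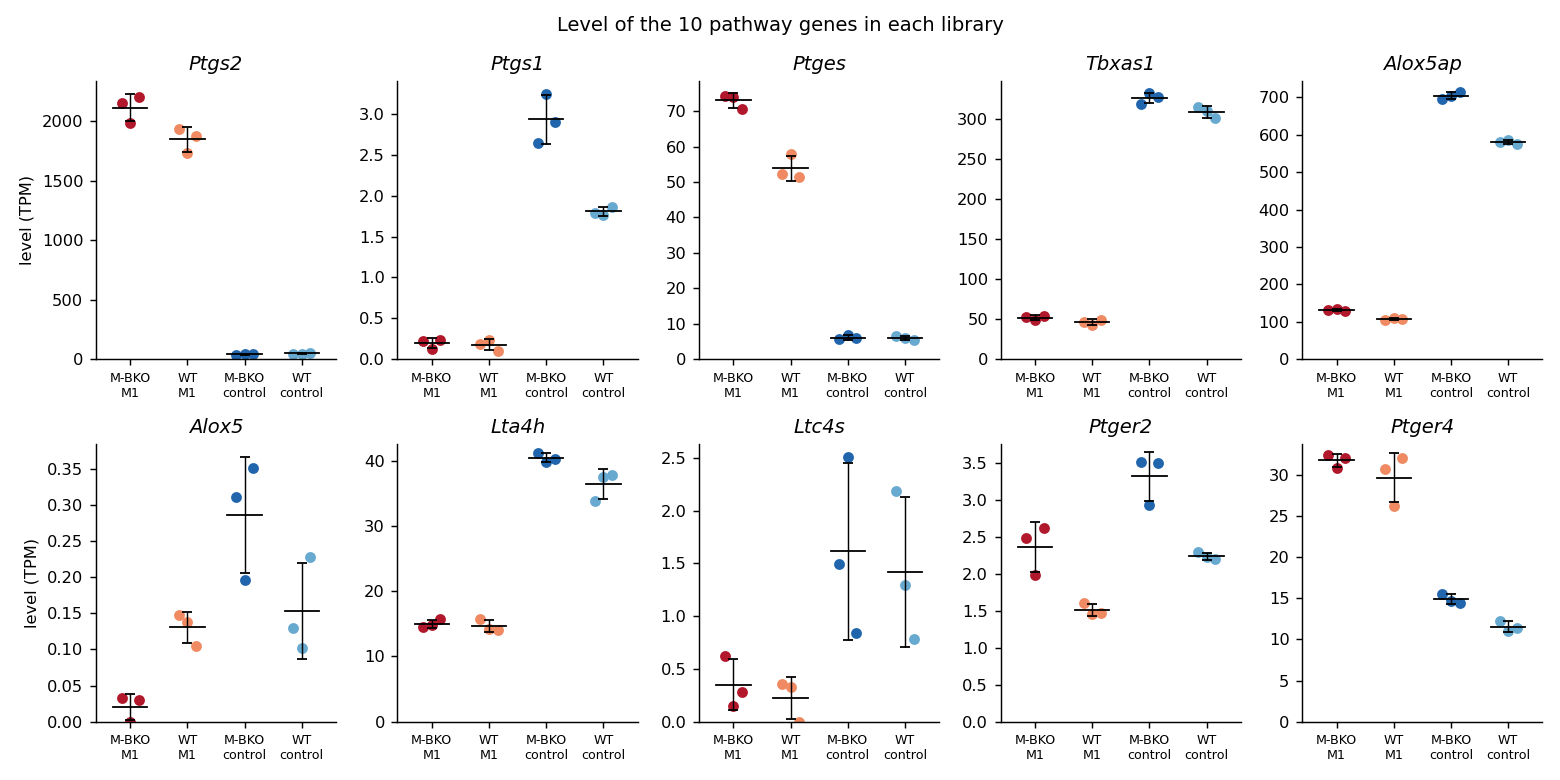
Level in TPM (linear axis from 0, its own scale in each panel) of the 10 genes in the 12 libraries, with each dot a library, the bar the mean and the whiskers the SD of 3 libraries. In both genotypes Ptgs2, Ptges and Ptger4 stood higher in the M1 group, while Ptgs1, Tbxas1, Alox5ap, Lta4h, Ltc4s and Ptger2 stood lower there than in the control group.

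After M1 activation the pathway was dominated by Ptgs2. Its level was 1734 to 2204 TPM in the M1 libraries, above Alox5ap at 105 to 135 TPM, Ptges at 51.3 to 74.4 TPM, Tbxas1 at 42.6 to 54.1 TPM, Ptger4 at 26.3 to 32.4 TPM and Lta4h at 14.1 to 15.7 TPM. Ptges and Tbxas1 did not overlap within either genotype. Without LPS the order was another: Alox5ap led with 575 to 713 TPM and Tbxas1 came next with 301 to 332 TPM. Ptgs2 and Lta4h were neighbours at that point and changed places between the genotypes, with Lta4h above Ptgs2 in M-BKO control (39.8 to 41.2 against 37.1 to 39.4 TPM) and Ptgs2 above Lta4h in WT control (45.2 to 50.3 against 33.8 to 37.9 TPM). In M-BKO control Ptger2 (2.94 to 3.52 TPM) overlapped Ptgs1 (2.65 to 3.25 TPM) and both were above Ltc4s (0.843 to 2.51 TPM). In WT control Ptger2 (2.20 to 2.29 TPM) was above both, and Ptgs1 (1.77 to 1.87 TPM) lay within the range of Ltc4s (0.783 to 2.19 TPM). Alox5 was at most 0.351 TPM throughout.

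Ptgs2 (chr1:150100124-150108012), the inducible enzyme, was at 2154, 1984 and 2204 TPM in M-BKO M1 against 37.1, 39.4 and 38.7 TPM in M-BKO control. In WT cells it was at 1938, 1734 and 1872 TPM after M1 against 45.3, 45.2 and 50.3 TPM without LPS. No library of a control group came near one of an M1 group, and the ratio of mean TPM was 55.1 in M-BKO and 39.4 in WT. Ptgs2 ranked 17 of 10822 genes by rise in M-BKO and 21 in WT.

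The genotype order of Ptgs2 reversed with treatment. After M1 all 3 M-BKO libraries were above all 3 WT libraries, by 0.19 on the log2 scale (standard error 0.055, limma adjusted p = 0.0458), and without LPS all 3 were below, with -0.28 (adjusted p = 0.00896). The M1 response was thus larger in M-BKO than in WT by 0.48 on the log2 scale (95% interval 0.31 to 0.64, limma interaction adjusted p = 0.00974), and this difference passed the threshold under each alternative setting run that keeps the p-value rule, with adjusted p of 0.00285 to 0.0352. The higher level after M1 did not. The adjusted p was 0.0873 with median-ratio scaling, 0.0606 with quantile normalization, 0.0791 with Lyz2 left out of the TPM total and 0.0641 without the 50 most abundant genes. It was 0.0863 with no filter and 0.0912 in limma without a trend. Leaving out any M-BKO control library gave 0.0574 to 0.0663, and leaving out WT control replicate 2 gave 0.0501. Leaving out WT M1 replicate 2 or 3, or M-BKO M1 replicate 1 or 3, gave 0.102 to 0.183. The lower level without LPS had an adjusted p of 0.0507 without M-BKO control replicate 1.

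Ptgs1 (chr2:36230426-36252269), the constitutive cyclooxygenase, had its higher levels in control cells. It was at 0.222, 0.123 and 0.234 TPM in M-BKO M1 against 2.65, 3.25 and 2.91 TPM in M-BKO control, and at 0.181, 0.239 and 0.104 TPM in WT M1 against 1.80, 1.77 and 1.87 TPM in WT control. It reached 1 TPM only in control libraries and passed the filter through them. The control libraries were all above the M1 libraries, by 15.2-fold of mean TPM in M-BKO and 10.3-fold in WT. On the log2(TPM + 1) scale, which shrinks changes at such low levels, the fold changes of -1.72 in M-BKO and -1.26 in WT are given as values only, with no test. Without LPS its 3 M-BKO libraries were all above the 3 WT libraries, with a log2 fold change of 0.48 (limma adjusted p = 0.00459), which was 0.37 with an adjusted p of 0.0505 after quantile normalization and 0.67 with 0.117 at a pseudocount of 0.1. After M1 the genotypes overlapped, with a log2 difference of 0.02 (95% interval -0.16 to 0.21). The difference between the M1 fold changes of the genotypes, -0.46, is also given as a value only. With the M1 libraries all under 1 TPM, it mostly repeats the difference between the control groups.

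The terminal synthases moved in opposite directions. Ptges (chr2:30889471-30903297), the inducible microsomal prostaglandin E synthase, was at 74.4, 74.0 and 70.8 TPM in M-BKO M1 against 5.56, 6.75 and 5.90 TPM in M-BKO control. In WT it was at 52.3, 58.0 and 51.3 TPM after M1 against 6.55, 5.99 and 5.41 TPM without LPS. It rose by 3.39 in M-BKO and 2.98 in WT on the log2 scale (limma adjusted p = 3.21e-14 and 1.25e-13). The lowest M-BKO M1 library was above the highest WT M1 library, and the mean was 1.36-fold higher in M-BKO (log2 fold change 0.43, standard error 0.076, limma adjusted p = 0.00326), whereas the control groups overlapped (log2 difference 0.02, 95% interval -0.15 to 0.18). The difference between the M1 responses was 0.42 (limma adjusted p = 0.0798), and it passed the threshold without WT control replicate 3 (0.48, adjusted p = 0.027) and at a pseudocount of 5 (0.40, adjusted p = 0.0247).

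Tbxas1 (chr6:38918986-39084579), the thromboxane synthase, was at 52.4, 48.5 and 54.1 TPM in M-BKO M1 against 319, 332 and 327 TPM in M-BKO control. In WT it was at 46.8, 42.6 and 49.3 TPM after M1 against 315, 310.2 and 301 TPM without LPS. Each M1 library was far below each control library of its genotype, and the gene fell by 2.64 in M-BKO and by 2.71 in WT on the log2 scale (limma adjusted p = 1.23e-14 and 9.51e-15). Among the 10822 genes it was the 124th and the 103rd from the lowest. The genotypes did not pass the test after M1 (log2 difference 0.16, 95% interval 0.04 to 0.27, adjusted p = 0.0889, which was 0.0478 without WT control replicate 3) or without LPS (0.08, adjusted p = 0.423).

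Of the leukotriene enzymes, those with a substantial level fell. Alox5ap (chr5:149265058-149288047), the protein that presents arachidonic acid to the lipoxygenase, was at 131, 135 and 129 TPM in M-BKO M1 against 695, 704 and 713 TPM in M-BKO control. In WT it was at 105, 109 and 107 TPM after M1 against 580.3, 587 and 575 TPM without LPS. It fell by 2.41 in M-BKO and by 2.43 in WT on the log2 scale (limma adjusted p = 1.91e-16 and 1.96e-16). Its replicates were the tightest of the members, and the M-BKO libraries were above the WT libraries under both conditions, by 0.30 after M1 and 0.28 without LPS (limma adjusted p = 1.01e-04 and 2.13e-04). The M1 responses of the genotypes differed by 0.02 (95% interval -0.08 to 0.12).

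Lta4h (chr10:93453396-93484896), which makes leukotriene B4, was at 14.4, 14.7 and 15.7 TPM in M-BKO M1 against 41.2, 39.8 and 40.3 TPM in M-BKO control. In WT it was at 15.7, 14.2 and 14.1 TPM after M1 against 33.8, 37.5 and 37.9 TPM without LPS. It fell by 1.38 in M-BKO and by 1.26 in WT on the log2 scale (limma adjusted p = 3.03e-11 and 8.86e-11). The M1 groups of the genotypes overlapped (log2 difference 0.03, 95% interval -0.10 to 0.16), and without LPS the M-BKO libraries were above the WT libraries without passing the test (0.15, 95% interval 0.02 to 0.28, adjusted p = 0.176).

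The remaining leukotriene enzymes had the lowest mean levels of the members without LPS. After M1 Alox5 was again lowest on average, but Ptgs1 (0.193 TPM in M-BKO and 0.175 TPM in WT) averaged below Ltc4s (0.351 and 0.229 TPM). Ltc4s (chr11:50236472-50238471), the leukotriene C4 synthase, was at 0.619, 0.150 and 0.285 TPM in M-BKO M1 against 1.49, 2.51 and 0.843 TPM in M-BKO control, and at 0.353, 0.333 and 0 TPM in WT M1 against 2.19, 1.30 and 0.783 TPM in WT control. It passed the filter through its control libraries, so its lower M1 values (log2 fold change -0.92 in M-BKO and -0.95 in WT) are given as values only. Alox5 (chr6:116410071-116461178), the lipoxygenase itself, was at 0.0322, 0 and 0.0296 TPM in M-BKO M1 against 0.310, 0.196 and 0.351 TPM in M-BKO control, and at 0.147, 0.139 and 0.105 TPM in WT M1 against 0.130, 0.101 and 0.228 TPM in WT control. The M-BKO groups did not overlap and the WT groups did. The transcript of its partner Alox5ap was thus at 105 to 713 TPM in libraries where that of Alox5 reached at most 0.351 TPM.

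The receptors for prostaglandin E2 differed in level and direction. Ptger4 (chr15:5233404-5243831) was at 32.4, 30.9 and 32.1 TPM in M-BKO M1 against 15.5, 14.7 and 14.4 TPM in M-BKO control. In WT it was at 30.7, 26.3 and 32.0 TPM after M1 against 12.3, 11.0 and 11.4 TPM without LPS. It rose by 1.04 in M-BKO and 1.28 in WT on the log2 scale (limma adjusted p = 3.83e-09 and 4.13e-10). Without LPS the M-BKO libraries were all above the WT libraries (log2 fold change 0.34, limma adjusted p = 0.0127), a call lost without WT control replicate 2 (adjusted p = 0.0560) or M-BKO control replicate 1 (0.0666). After M1 the genotypes overlapped (0.10, 95% interval -0.05 to 0.25).

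Ptger2 (chr14:44988111-45003820) was at 2.49, 1.99 and 2.62 TPM in M-BKO M1 against 3.52, 2.94 and 3.50 TPM in M-BKO control. In WT it was at 1.60, 1.46 and 1.47 TPM after M1 against 2.29, 2.23 and 2.20 TPM without LPS. The M1 libraries were below the control libraries in both genotypes, but the log2 fold changes of -0.36 and -0.37 were under the 1.5-fold threshold, and with quantile normalization they were 0.22 and 0.12. An antisense gene is annotated across the whole of Ptger2, and the sources do not say whether reads were counted by strand. Between genotypes every M-BKO library was above every WT library of the same treatment, by 0.42 after M1 and 0.41 without LPS (limma adjusted p = 0.0106 and 0.0155). The call after M1 was lost without M-BKO M1 replicate 3 (adjusted p = 0.0516). The call without LPS was lost without WT control replicate 2 (0.05, just above the threshold), M-BKO control replicate 1 (0.0741) or M-BKO control replicate 3 (0.0752), and with quantile normalization (0.0742).

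Counted over the members, M1 activation raised 3 of the 9 tested genes in each genotype (Ptgs2, Ptges and Ptger4) and lowered 3 (Tbxas1, Alox5ap and Lta4h) at an adjusted p under 0.05 and a fold over 1.5. Ptgs1 and Ltc4s also lay past that threshold on the lower side, but no M1 library reached 1 TPM for either, so they passed the filter through the group where they are high and are not read as falls. Of all tested genes, 12.3% were called higher and 42.3% lower in M-BKO, and 12.9% higher and 41.0% lower in WT, so a fall was common. With median-ratio scaling, which moves the median of all genes to -0.01 in each genotype and the share of rises among calls to 49.9% in M-BKO and 51.3% in WT (22.5% and 24.0% before it), the fit again put 3 members past the threshold on the higher side and 5 on the lower, Ptgs1 and Ltc4s included, in each genotype. Of all 10822 tested genes, that scaling called 2402 higher and 2410 lower in M-BKO, and 2446 higher and 2324 lower in WT.

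**Figure D2:**
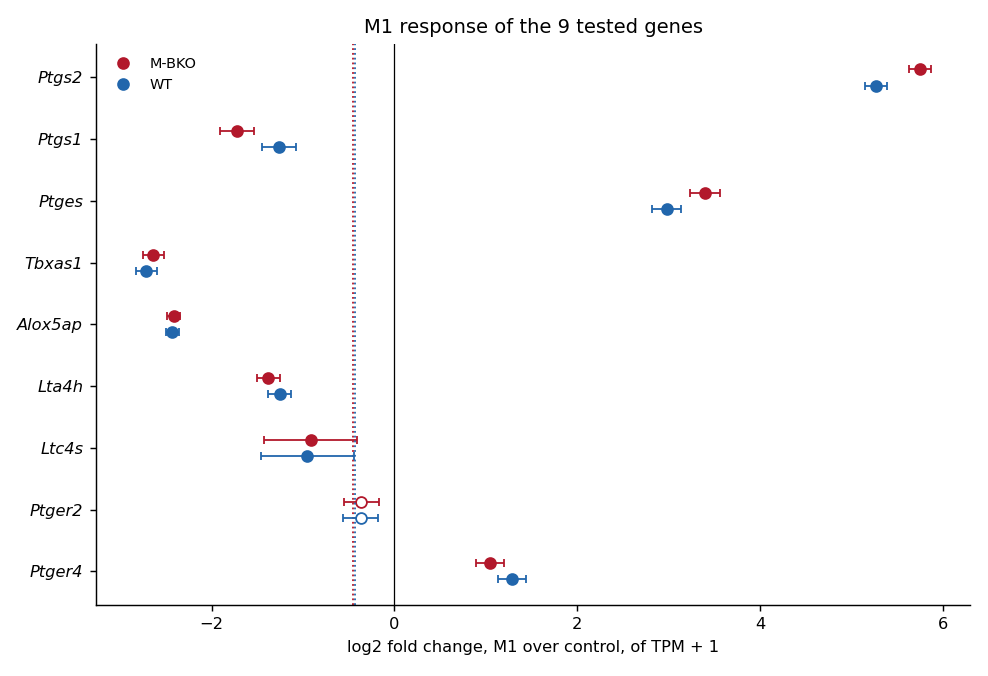
Log2 fold change of TPM + 1, M1 over control, with 95% intervals, for the 9 tested genes in M-BKO (red) and WT (blue, 3 libraries a group). Filled dots passed the threshold (Ptgs1 and Ltc4s passed the filter through control libraries alone), dotted lines are the medians of all genes, and Ptgs2 lies far to the right at 5.75 in M-BKO and 5.27 in WT while Tbxas1 and Alox5ap lie below -2.

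Between genotypes after M1, 4 of 9 members were called higher in M-BKO (Ptges, Ptger2, Alox5ap and Ptgs2) and 0 lower, against 5.87% and 2.45% of all tested genes. At an unadjusted limma p under 0.05 the lower calls were still 0, since all 9 fold changes were above 0. Without LPS, 4 were called higher (Ptgs1, Ptger2, Ptger4 and Alox5ap) and 1 lower (Ptgs2), against 4.56% and 1.12%. Higher calls made up 70.6% of all calls after M1 and 80.3% without LPS, and 47.3% and 41.8% with median-ratio scaling. Of all 10822 tested genes, that scaling called 427 higher and 476 lower after M1, and 142 higher and 198 lower without LPS. Under it the members' counts were 3 and 0 after M1, Ptgs2 being the gene lost, and 4 and 1 without LPS. All these differences were under 1.5-fold on the log2(TPM + 1) scale, which shrinks changes at low levels. The ratio of mean TPM, M-BKO over WT, was 1.62 for Ptgs1 without LPS and 1.57 for Ptger2 after M1. The interaction was called higher for Ptgs2 and lower for 0 of the 9, against 0.536% of all genes higher and 0.841% lower. At an unadjusted limma p under 0.05, for which no share of all genes is given, it was 2 higher and 2 lower. Ptgs1, whose M1 change is given as a value only, was 1 of the lower. These comparisons share libraries with one another.

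**Figure D3:**
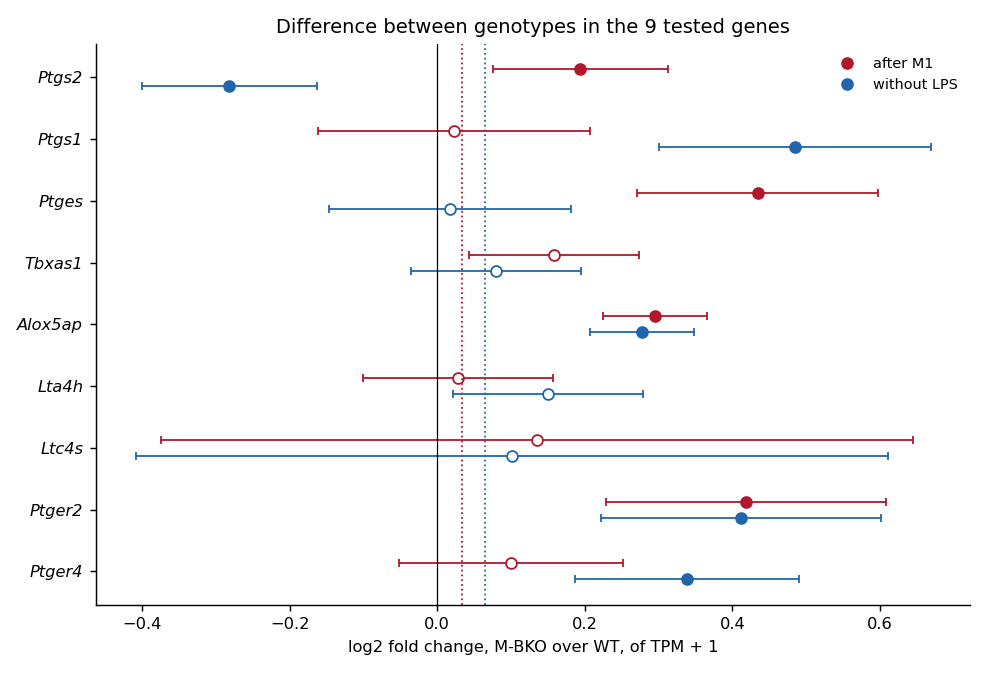
Log2 fold change of TPM + 1, M-BKO over WT, with 95% intervals, for the 9 tested genes after M1 (red) and without LPS (blue, 3 libraries a group). Filled dots passed the threshold and dotted lines are the medians of all genes. Ptgs2 sits at 0.19 after M1 and -0.28 without LPS, and Alox5ap and Ptger2 are shifted to the right under both conditions.

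Transcripts typical of other myeloid cells moved with several members. The neutrophil list (6 of 7 found, most of it S100a8 and S100a9) summed to 117 to 124 TPM in M-BKO M1 against 81.1 to 88.9 TPM in WT M1. Without LPS it summed to 297 to 342 TPM in M-BKO control against 227 to 262 TPM in WT control. Elane was at 0 in WT M1. The paper names S100a8 and S100a9 as targets of the factor Hif-1α and places them among genes higher in M-BKO macrophages after M1. The megakaryocyte or platelet list (6 of 6 found, most of it Pf4) summed to 173 to 179.7 TPM in M-BKO M1 against 139 to 146 TPM in WT M1, and to 323 to 336 TPM in M-BKO control against 250 to 265 TPM in WT control, with Gp1bb at 0 in M-BKO control. The sums of both lists were thus lower after M1 and higher in M-BKO, as were Alox5ap and Ptger2, the M1 change of Ptger2 being under 1.5-fold. Single genes differed. Itga2b of the platelet list averaged 1.41 TPM in M-BKO M1 against 1.37 TPM in M-BKO control, and 1.505 against 1.04 TPM in WT. The sum of the macrophage list moved like these sums, at 4947 to 4968 TPM in M-BKO M1 against 4373 to 4559 TPM in WT M1. Without LPS it was at 6328 to 6494 TPM in M-BKO control against 5582 to 5756 TPM in WT control. Its single genes differed too. Csf1r, Cd68, Cd63 and Fcgr1 averaged lower after M1 in both genotypes, while Cd14, Mertk and Itgam averaged higher. Cd14 was at 1836 TPM in M-BKO M1 against 105.5 TPM in M-BKO control, and at 1559 against 73.35 TPM in WT. Fcgr1 (607.9 against 647.4 TPM) and Mertk (166.2 against 171.6 TPM) averaged lower in M-BKO M1 than in WT M1. Platelets are known to use Ptgs1 and Tbxas1 to make thromboxane, and neutrophils to use Alox5ap. Their part in these results was not tested, and in bulk RNA fewer cells of a type and less RNA per cell cannot be told apart.

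Ratios taken within a library, which no scaling of the library can change, put the shift in balance in one number. They were chosen after the values were seen. Ptgs2 over Ptgs1 had a geometric mean of 11377 in M-BKO M1 against 13.1 in M-BKO control, and 11172 in WT M1 against 25.9 in WT control. Its M1 values ranged from 7245 to 18015 because Ptgs1 was then so low. Ptges over Tbxas1 was 1.42 in M-BKO M1 against 0.0186 in M-BKO control, and 1.17 in WT M1 against 0.0193 in WT control, so the transcript of the prostaglandin E synthase was above that of the thromboxane synthase in all 6 M1 libraries and in none of the 6 control libraries. Ptger4 over Ptger2 was 13.5 in M-BKO M1 against 4.50 in M-BKO control, and 19.6 in WT M1 against 5.16 in WT control.

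For each of these 3 ratios the M1 and control libraries did not overlap in either genotype. Since the ratios were picked for these values, no test is given. Ptger4 over Ptger2 did not overlap between the genotypes after M1, at 12.2 to 15.5 in M-BKO M1 against 18.1 to 21.7 in WT M1, and overlapped without LPS. For Ptgs2 over Ptgs1 the genotypes did not overlap without LPS, at 12.1 to 14.0 in M-BKO control against 25.2 to 27.0 in WT control, and overlapped after M1.

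**Figure D4:**
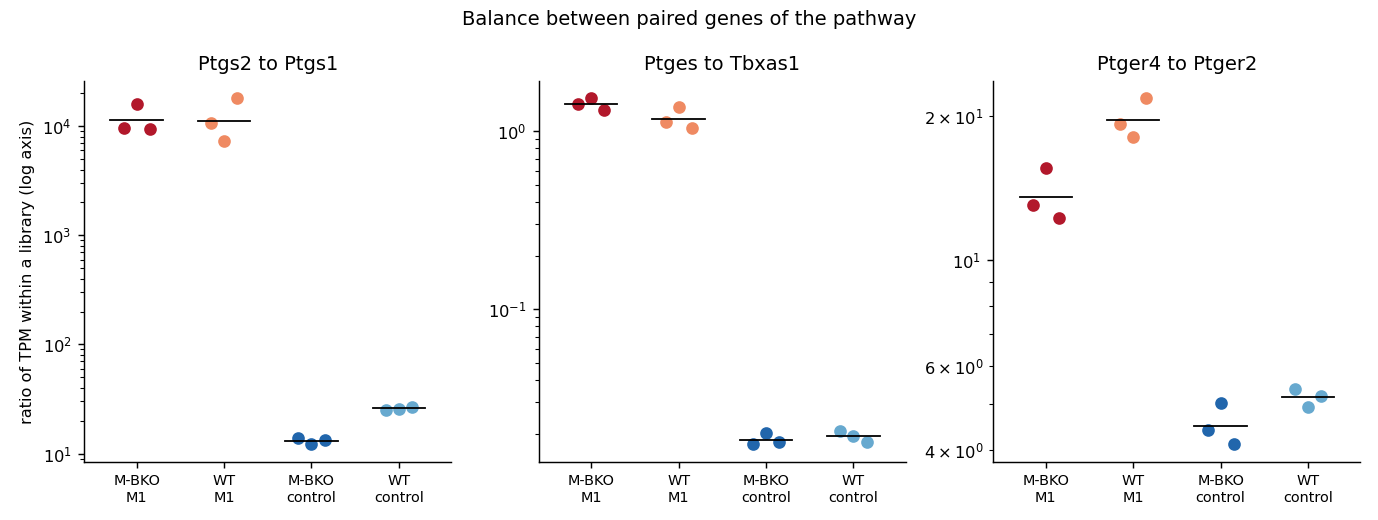
Ratio of the TPM of 2 members within each library (log axis, its own scale in each panel); each dot is a library and the bar the geometric mean of 3. The M1 libraries lie above the control libraries in all 3 panels, and Ptger4 to Ptger2 is 13.5 in M-BKO M1 against 19.6 in WT M1.

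Beyond the members, 28 of 52 other pathway genes were tested, and 19 were called lower and 2 higher after M1 in each genotype. Of all tested genes, 42.3% were called lower and 12.3% higher in M-BKO, and 41.0% lower and 12.9% higher in WT. Mgll, Hpgd, Mgst2 and Akr1b3 were under 1 TPM in most M1 libraries of both genotypes and passed the filter mainly through control cells. Of the 24 others, 15 fell in M-BKO and 16 in WT. The 2 that rose were Abcc1, an exporter of leukotriene C4 (log2 fold change 1.61 in M-BKO and 1.78 in WT), and Ptgir, the prostacyclin receptor (1.08 and 0.95). With median-ratio scaling the counts over all 28 were 12 lower and 3 higher in M-BKO and 13 lower and 4 higher in WT. Of all 10822 tested genes, that scaling called 2410 lower and 2402 higher in M-BKO, and 2324 lower and 2446 higher in WT. Of the further genes listed with the leukotriene enzymes, Mgst3, a microsomal glutathione transferase, had the smallest adjusted p (-2.04 in M-BKO and -2.16 in WT). Mgst1, listed with it as a transferase of that name, had the largest fold change (-2.14 and -2.29), and a part of it in making leukotrienes was not tested. Dpep2, a dipeptidase that trims leukotriene D4, had the highest mean over all 12 libraries and fell by 1.30 in M-BKO and by 1.37 in WT. All 3 tested leukotriene receptors fell in both genotypes. Ltb4r1, the high-affinity leukotriene B4 receptor, was at -2.47 in M-BKO and -1.86 in WT. Its M1 levels were near the filter's 1 TPM, at 0.849, 1.08 and 1.02 TPM in M-BKO and 0.373, 1.13 and 0.784 TPM in WT. Cysltr1, the most abundant, was at -1.81 and -1.96.

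Arachidonate and prostaglandin handling gave smaller changes. Of all tested genes 42.3% were called lower in M-BKO and 41.0% in WT, so counts in lists this short are descriptions only. Of 7 tested genes of arachidonate release, 4 were called lower in M-BKO and 5 in WT. Mgll was among them in each, but no M1 library reached 1 TPM for it, so it is not read as a fall. The lysosomal phospholipase Pla2g15 was first by adjusted p (-1.43 in M-BKO and -1.09 in WT). Of 6 further prostanoid synthases 3 fell in each genotype, with Hpgds, the hematopoietic prostaglandin D synthase, first by adjusted p (-1.19 in M-BKO and -1.13 in WT). Akr1b3, also past the threshold in M-BKO, was at 0, 0 and 0 TPM in M-BKO M1 against 3.75, 0 and 6.30 TPM in M-BKO control, which overlap at 0. In this list the most abundant gene, Ptges3, was not called (0.43 and 0.20). Of 6 genes of transport and breakdown 4 were called lower in each genotype. Hpgd was among them, but no M1 library reached 1 TPM for it, so it is not read as a fall. First by adjusted p was Cyp4f18, which is known to oxidize leukotriene B4, in M-BKO (-1.84 in M-BKO and -1.49 in WT), and Ptgr2, a prostaglandin reductase, in WT (-1.45 and -1.43).

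Pla2g4a, the cytosolic phospholipase that supplies both branches, gave the other interaction call on the higher side. It was lower after M1 in both genotypes, by less in M-BKO (log2 fold change -0.46) than in WT (-0.81). It was at 95.7, 94.3 and 95.2 TPM in M-BKO M1 against 76.8, 70.8 and 73.7 TPM in WT M1, with no overlap (log2 fold change 0.36, limma adjusted p = 0.00136), and at 137, 129 and 127 TPM in M-BKO control against 125, 123 and 143 TPM in WT control, which overlapped. Its interaction was 0.35 (adjusted p = 0.0427), and that of Pla2g15 was -0.34 (adjusted p = 0.0167), a call lost with median-ratio scaling. Over the 28 genes, 7 were called higher and 1 lower in M-BKO after M1, against 5.87% and 2.45% of all tested genes. Median-ratio scaling gave 7 and 1 again, against 427 higher and 476 lower of all 10822 tested genes. First by adjusted p was Mgst3 (log2 fold change 0.47), and Pla2g15 was the lower one (-0.20). Ptgr1, a reductase that inactivates leukotriene B4, was also higher (0.37, adjusted p = 0.00448). Without LPS 6 were higher and 0 lower, against 4.56% and 1.12% of all tested genes. At an unadjusted limma p under 0.05 the counts were 12 and 0. No share of all genes is given at that threshold, so they are descriptions only. First by adjusted p was Ltb4r1, which was at 10.2, 9.47 and 10.2 TPM in M-BKO control against 5.54, 4.93 and 5.36 TPM in WT control (limma adjusted p = 0.00178). Abcc1 (0.25) and Hpgds (0.30) were also called. With median-ratio scaling 1 gene was called higher without LPS, against 142 of all 10822 tested genes.

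**Figure D5:**
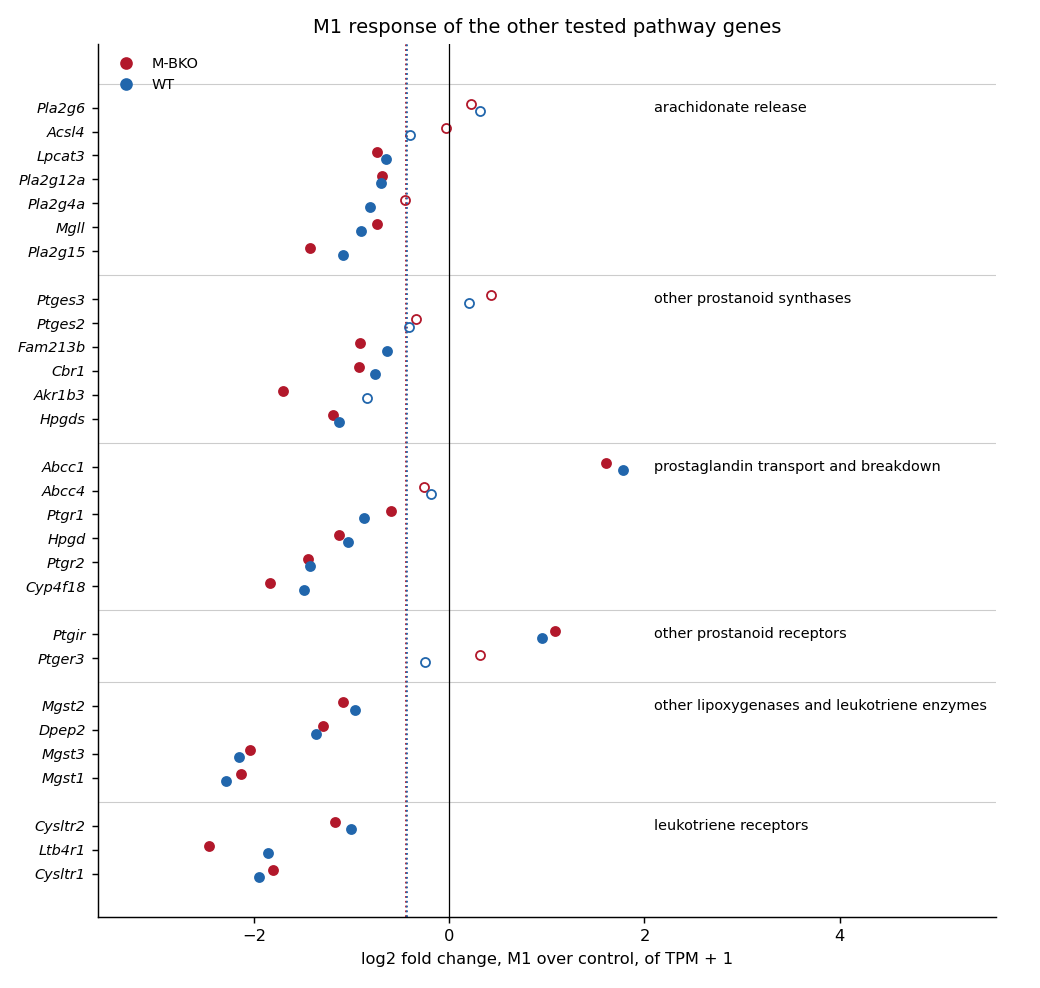
Log2 fold change of TPM + 1, M1 over control, of the 28 other tested pathway genes by list, in M-BKO (red) and WT (blue, 3 libraries a group). Filled dots passed the threshold and dotted lines are the medians of all genes. Abcc1 and Ptgir are the filled dots to the right of 0, and all 7 tested genes listed with the leukotriene enzymes and receptors lie to the left.

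The genes most alike to each member were found by the root mean square difference of log2(TPM + 1) over the 12 libraries after each gene was centred on its own mean, among 10210 named genes. Ptgs2 was closest to Marco (0.165), Cd200 (0.166) and Adora2a (0.176), and Ptges to Thbs1 (0.120), Il12a (0.131) and Srxn1 (0.144). Alox5ap was closest to Csf1r (0.0705), Tbxas1 to Nusap1 (0.0812) and Lta4h to Ttc13 (0.0472). Ptger4 was closest to Ext1 (0.0986), Ptger2 to Sept11 (0.0955), Ptgs1 to Abca9 (0.0624) and Ltc4s to Gpt (0.168). The 12 points are 4 groups of 3 libraries.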

How the data were processed

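RNA of 12 BMDM cultures was sequenced by the authors from stranded mRNA libraries (TruSeq) on an Illumina NextSeq instrument, trimmed and mapped to mm10 in CLC Genomics Workbench; the version, the annotation and whether counting used strand are not given in the sources used here. Tbxas1, Alox5ap, Ltc4s, Ptger2 and Ptgs1 have an annotated gene on the opposite strand, so their reads may be shared with it. The deposited TPM were used as given, with gene coordinates from the same table; other deposited sheets hold only the authors' fold changes, p-values and FDR and were not used. TPM hold no read number, so precision comes from the 3 cultures of a group.

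Tests used limma 3.58.1 (R 4.3.3) with a mean-variance trend on log2(TPM + 1) for the 10822 genes that 3 or more libraries put at 1 TPM or above, with 4 group means and 8 residual degrees of freedom; the code was tested on simulated data. Benjamini-Hochberg adjustment ran within each comparison. The call for an M1 response needed an adjusted p under 0.05 and a fold over 1.5, that for genotype differences and the interaction an adjusted p under 0.05. The alternatives were 24 other settings, among them other pseudocounts, filters and scalings, a replicate block and leaving out each library. All 10 members are named; of each other list, the called gene with the smallest adjusted p in each direction and the most abundant gene could be named. The members, lists and tests were chosen with earlier results of these data known. Motifs were searched with Python 3.11.15 in RefSeq promoter windows.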

Additional observations from a re-analysis of the deposited data

Results flagged for a closer look

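The M1 response of Ptgs2 was larger in M-BKO than in WT by 0.476 on the log2(TPM + 1) scale (limma interaction adjusted p = 0.00974), which is why it is listed here. The ratio of mean TPM, M1 over control, was 55.1 in M-BKO and 39.4 in WT. In the libraries, the 3 M-BKO values were above the 3 WT values after M1 and below them without LPS.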

How the results depend on the processing

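Of 1056 values of single members under an alternative setting, 980 kept their direction and side of the threshold, 38 lost the threshold, 7 gained it and 31 changed sign. The replicate block (same-numbered libraries did not deviate together, r = -0.249 to 0.258, and 5 of 12 were closest to their own number) changed no member's call. Over all genes it gave 845 calls after M1, 551 without LPS and 134 for the interaction, against 900, 615 and 149. In M1 responses the fit put 5 members on the lower side in each genotype, Ptgs1 and Ltc4s included, and members called lower were 3 in WT at a pseudocount of 5, and 3 in each genotype at 5 TPM in at least 3 libraries, where fewer genes are tested. Without LPS, members called higher were 2 at 5 TPM and 2 with quantile normalization. Interaction calls were 2 higher and 1 lower at a pseudocount of 5, and 1 lower in limma without a trend. The lower one was Ptgs1 in both settings. No M1 library put that gene at 1 TPM, so the call is not read as a result. With a fold of TPM + 1 over 1.5 also asked of genotype differences, members called were 0 higher after M1, 0 higher and 0 lower without LPS, and 0 for the interaction.

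Leaving out 1 library at a time gave 2 to 5 members higher after M1 (2 without M-BKO M1 replicate 3), 2 to 4 higher and 0 to 1 lower without LPS (2 higher without WT control replicate 2 or M-BKO control replicate 1, 0 lower without M-BKO control replicate 1), and 1 to 2 higher for the interaction. Sign changes were in values that were not called. With quantile normalization Ptger2 was 0.12 (WT) and 0.22 (M-BKO) after M1, and the genotype difference after M1 was -0.0050 for Ptgs1 and -0.012 for Lta4h (-0.019 with median-ratio scaling). The difference of Ptges without LPS was -0.044 with median-ratio scaling, -0.067 with quantile normalization, -0.024 without Lyz2 and -0.027 without the 50 most abundant genes. The interaction at a pseudocount of 5 was -0.0074 for Ltc4s and -0.022 for Ptger2. Leave-one-out ranges that crossed 0 were, after M1, Lta4h -0.0048 to 0.075, Ltc4s -0.0064 to 0.24 and Ptgs1 -0.022 to 0.066. Without LPS they were Ltc4s -0.14 to 0.33 and Ptges -0.050 to 0.076, and for the interaction Alox5ap -0.0012 to 0.032, Ltc4s -0.19 to 0.27 and Ptger2 -0.058 to 0.091. The causes were not tested. The unknown read depth limits most the genes below about 1 TPM, Alox5, Ltc4s and, after M1, Ptgs1.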

Other observations

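Ptger3, a prostaglandin E2 receptor that lowers cyclic AMP, averaged 1.40 TPM in M-BKO M1 against 0.748 TPM in WT M1, with no overlap (log2 fold change 0.46, limma adjusted p = 0.0324). Named after their values were seen, the prostaglandin D2 synthase Ptgds and the receptor Ptgdr were listed at 0 TPM in all 12 libraries.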
